A study of Mus musculus with 4 samples.

Results

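Collagen chains, the polypeptides that twist together into the collagens of the extracellular matrix, were followed in mouse ovaries at E13.5 (embryonic day). Every row of the gene count table whose symbol is Col, a type number, the letter a and a chain number was taken, which gave 44 chains among 34682 genes. Of these, 11 belong to fibrillar types (I, II, III, V, XI, XXIV and XXVII), 8 to basement membrane types (IV, XV and XVIII) and 25 to other types. Of the 11 fibrillar chains, 6 were more abundant in mutant than in wild-type ovaries in the replicate 1 libraries and less abundant in the replicate 2 libraries. Of all genes tested, 23.5% had this order. The summed level of the basement membrane chains differed little between libraries, and 0 of the 42 chains that could be tested passed the test for a change with genotype.

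Total RNA was sequenced from 2 libraries of Sall1-overexpressing mutant ovaries and 2 libraries of wild-type ovaries, all at E13.5, with replicate numbers 1 and 2 in each genotype. The mutants carried a bacterial artificial chromosome in which the promoter and regulatory elements of Wt1, a transcription factor gene of gonadal somatic cells, drive the coding sequence of the transcription factor gene Sall1, on top of their own Sall1 alleles. The transgene was integrated with piggyBac into female embryonic stem cells derived from C57BL/6J blastocysts. The study's animal methods name C57BL/6J or a hybrid of it with another strain as the background of such cells. Transgenic mice were then made from the cells by morula aggregation. Whether the sequenced embryos came straight from aggregation or from bred offspring is not given in the sources used here. If they came straight from it, host cells may remain in a mutant ovary. The wild-type embryos carried no transgene and are called littermates in the study's results and CD1 in its methods, while their column names contain B6, so that genotype and strain cannot be told apart. How many ovaries went into a library, and how many stem cell clones the mutants came from, is not given in the sources used here. Both mutant column names contain MutSall1N2, and what N2 stands for is not explained. Nothing says that the libraries came from separate litters, so p-values measure only the spread between these libraries.

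Library totals were 11036313 and 14893508 counts in the mutants and 17214470 and 17869840 in the wild types. Sall1 was at 113 and 96.0 CPM (counts divided by the TMM-scaled library total, as edgeR computes them) in the mutants and at 16.2 and 12.6 CPM in the wild types, a log2 fold change of 2.85 ± 0.16 (SE, n = 2 per genotype, edgeR adjusted p = 0.00823). Markers of ovarian somatic cells summed to between 1180 and 1384 CPM and markers of germ cells to between 1394 and 1615 CPM, so both main cell types of a fetal ovary were present in each library. Libraries stood apart in blood and muscle RNA. Erythroid markers summed to 416 and 489 CPM in replicate 1 of the mutant and the wild type and to 95.8 and 193 CPM in replicate 2, and skeletal muscle markers to 162 CPM in wild-type replicate 1 against 5.92 to 23.2 CPM in the other libraries.

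A collagen is built from chains that wind into a triple helix. Fibrillar collagens assemble into the load-bearing fibrils of connective tissue. Type IV collagen forms the meshwork of basement membranes, the sheets under epithelia and around vessels and muscle, and types XV and XVIII sit at the margins of those sheets. The other collagens decorate fibrils, form beaded filaments beside them or span the cell membrane. In the fetal ovary, stroma lays down interstitial collagen, while basement membranes surround the vessels and the cords in which germ cells and pre-granulosa cells lie.

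Levels of different chains can be compared only per length, so CPM was divided by the kilobases of exon that a gene's transcripts cover together. On this scale 14 chains had a mean level of at least 10 CPM per kb, 14 between 1 and 10, 14 between 0.1 and 1, and 2 below 0.1. The highest were Col3a1 (111 CPM per kb), the basement membrane chain Col4a1 (87.8), the beaded filament chain Col6a1 (68.9), the basement membrane chain Col18a1 (65.0) and the type I chain Col1a1 (62.9). This ranking depends on the length used. With the longest transcript of each gene as the length, the type I chain Col1a2 rose from 51.6 to 117 CPM per kb. Only Col3a1 (167) was then higher, and Col4a1 was at 90.5. The 14 most abundant chains hold members of every class, with 5 fibrillar, 4 basement membrane and 5 other chains. At the other end, Col10a1, the collagen of hypertrophic cartilage, had 3 and 0 counts in the mutants and 1 and 2 in the wild types, and Col26a1 had 0 in every library, where 3 counts correspond to between 0.17 and 0.272 CPM by counting error alone. An older symbol of Col26a1, Emid2, has a row of its own with 0, 1, 1 and 5 counts. Both chains fell under the filter on low counts, which left 42 of 44 chains in the test. Col8a1 passed that filter only through its mutant libraries and therefore had to differ between the groups.

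**Figure D1:**
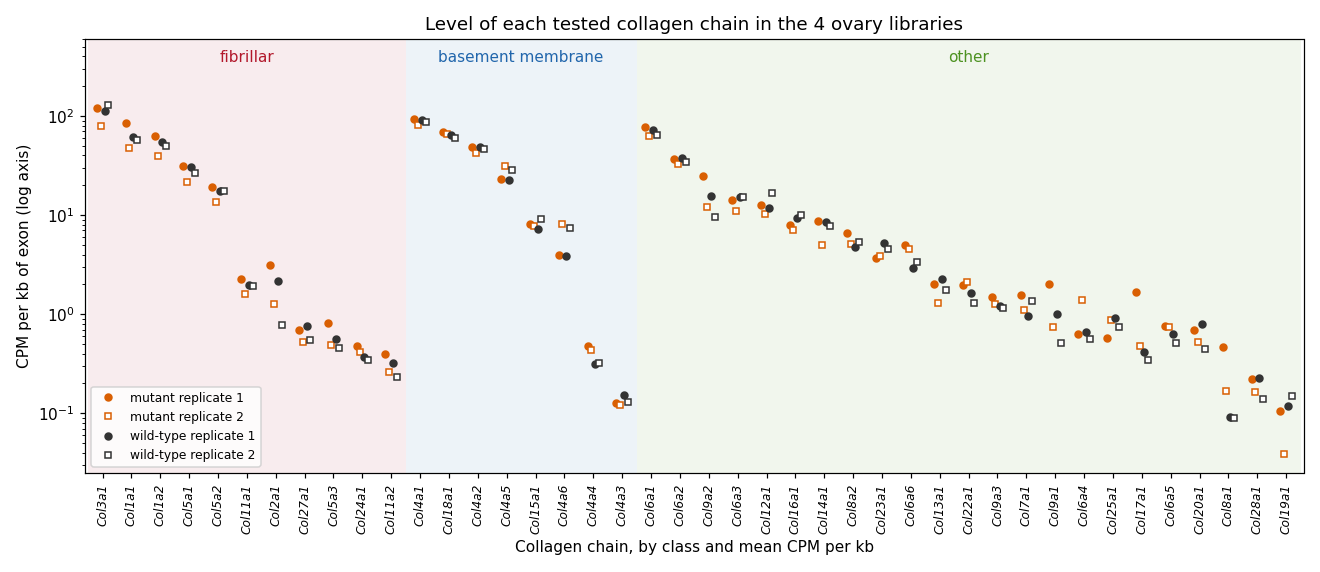
Level of the 42 tested collagen chains in each library, as CPM per kb of exon on a log axis, ordered by class and mean level. Orange symbols are mutant libraries, dark symbols wild-type libraries, filled circles replicate 1 and open squares replicate 2. For most fibrillar chains the open orange square of mutant replicate 2 is lower than the filled orange circle of mutant replicate 1, while Col4a1, Col4a2 and Col18a1 keep their symbols close together.

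Summed over all chains, collagen took 0.59% and 0.461% of the counts of the mutant libraries and 0.54% and 0.537% of those of the wild-type libraries. The wild types lay between the mutants. The fibrillar chains carried that spread, at 2831 and 1817 CPM in the mutants and 2480 and 2511 CPM in the wild types. Of all collagen counts they made up 47.9% and 39.9% in the mutants, beside 45.9% and 46.2% in the wild types. The basement membrane chains summed to 1692 and 1629 CPM in the mutants and 1616 and 1634 CPM in the wild types, a narrow range into which both genotypes fell. The other chains summed to 1382 and 1114 CPM in the mutants and 1306 and 1290 CPM in the wild types. In bulk RNA of this kind, fewer cells of a type and less RNA per cell cannot be told apart.

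**Figure D2:**
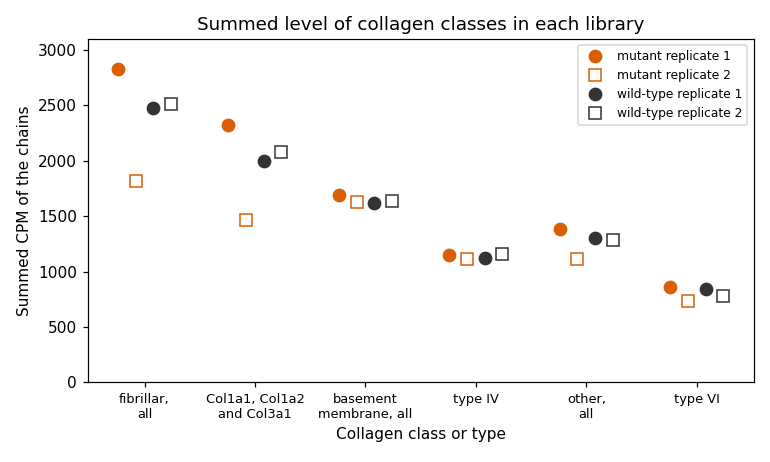
Summed level of the fibrillar, basement membrane and other collagen chains in each of the 4 libraries, each followed by a subset of its class (Col1a1, Col1a2 and Col3a1 for the fibrillar, type IV for the basement membrane and type VI for the other chains), in CPM on an axis from 0. The fibrillar sum is lowest in mutant replicate 2 (1817 CPM) and highest in mutant replicate 1 (2831 CPM), with both wild types between them, while the basement membrane sum stays between 1616 and 1692 CPM.

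Whether the chains changed with genotype was read from a fit across all 15442 genes that passed the filter. At an edgeR adjusted p under 0.05, 0 of 42 chains were called, in a comparison that called 0.0583% of all genes tested (9 genes, 2 higher and 7 lower in the mutants). The lowest adjusted p of a chain was 0.347. At an unadjusted p under 0.05 there were 6 chains, 4 higher and 2 lower, or 14.3% of the chains beside 5.69% of all genes. Without Col8a1, which had to differ to pass the filter, they were 5 of 41 chains, or 12.2%. All 6 belong to the other class, and the fibrillar and basement membrane chains had 0. DESeq2 gave an adjusted p for 40 chains and called 0 of them, beside 0.725% of the genes with an adjusted p. Its lowest adjusted p of a chain was 0.266. At an unadjusted DESeq2 p under 0.05 there were 3 of the 42 chains, beside 550 of the 15442 genes. Both mutant libraries lay outside the wild-type range for 14 of 42 chains, 9 above and 5 below it. That is 33.3% of the chains, close to the 30.9% of all genes.

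The median log2 fold change of mutant over wild type was 0.06 for the 42 chains, 0.004 for the fibrillar, 0.03 for the basement membrane and 0.07 for the other chains, beside -0.001 for all genes. The median size of the change regardless of sign was 0.23 for the chains and 0.11 for all genes. By class it was 0.15 for the fibrillar, 0.11 for the basement membrane and 0.31 for the other chains, several of which had few counts. The chains ranged from a log2 fold change of -0.94 for Col19a1, at most 1.02 CPM in each library, to 1.76 for Col8a1.

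**Figure D3:**
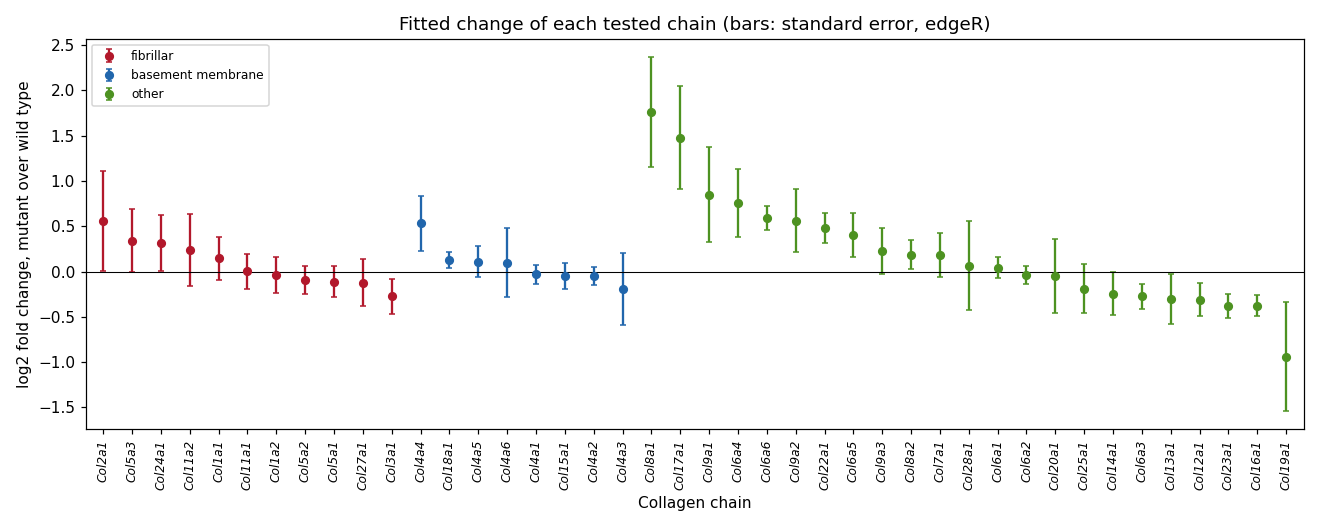
Log2 fold change of mutant over wild type for each tested chain, by class, with its standard error from the edgeR quasi-likelihood fit (n = 2 libraries per genotype). The largest changes, for Col8a1 and Col17a1, have wide errors, and none of the 42 chains passed an adjusted p of 0.05.

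Among the fibrillar collagens, the chains of types I and III formed the bulk, and their levels separated the mutant libraries from each other rather than from the wild types. Col3a1, the homotrimeric collagen of distensible tissues (chromosome 1, 45368383 to 45406551, plus strand, mm9), was at 1014 and 668 CPM in the mutants and at 937 and 1095 CPM in the wild types. Mutant replicate 1 lay inside the wild-type range and mutant replicate 2 below it, and the log2 fold change was -0.27 ± 0.19 (SE, edgeR adjusted p = 1). Without mutant replicate 1 it became -0.605 with an edgeR adjusted p of 0.0476, so this call depends on which mutant library is kept. Col1a1, the chain present in pairs in most type I collagen (chromosome 11, 94797538 to 94814356, plus strand), was at 554 and 313 CPM in the mutants and 405 and 378 CPM in the wild types. Its partner Col1a2 (chromosome 6, 4454814 to 4491543, plus strand) was at 754 and 481 CPM in the mutants and 659 and 610 CPM in the wild types. For both, mutant replicate 1 was the highest and mutant replicate 2 the lowest of the 4 libraries, and the log2 fold changes were 0.15 ± 0.24 and -0.04 ± 0.20 (SE).

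The ratios between these chains were also compared. Per kb of exon, Col1a1 stood to Col1a2 as 1.36 and 1.21 in the mutants and as 1.14 and 1.15 in the wild types. The mutants lay above the wild types in this ratio. With the longest transcript of each gene as the length, which for Col1a2 is 5347 instead of 12145 bases, the ratios were 0.662 and 0.588 in the mutants and 0.555 and 0.559 in the wild types, so the order of the libraries held while the order of the chains did not. Col3a1 stood to Col1a1 as 1.43 and 1.67 per kb in the mutants and 1.81 and 2.26 in the wild types, lower in both mutants than in either wild type. Such separation was not particular to these chains. The ratios of Col4a1 to Col4a2, Col6a1 to Col6a2 and Col6a1 to Col6a3 also separated the genotypes. Those of Col4a5 to Col4a6 and Col5a1 to Col5a2 overlapped, and no ratio was tested.

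Col1a2 and Col3a1 were lower in mutant replicate 2 than in any other library, as were Col1a1, Col5a1, Col5a2 and further chains. The 250 bases before the annotated starts of Col1a2 and Col3a1 are shown. They come from RefSeq, on GRCm38.p6, at chr6:4505368-4505617 and chr1:45311288-45311537, both on the plus strand, and read 5′ to 3′ towards the start. Capitals mark the motifs searched on both strands, the GC box (GGGCGG), the CCAAT box (CCAAT) and the TATA box (TATAAA).
Col1a2: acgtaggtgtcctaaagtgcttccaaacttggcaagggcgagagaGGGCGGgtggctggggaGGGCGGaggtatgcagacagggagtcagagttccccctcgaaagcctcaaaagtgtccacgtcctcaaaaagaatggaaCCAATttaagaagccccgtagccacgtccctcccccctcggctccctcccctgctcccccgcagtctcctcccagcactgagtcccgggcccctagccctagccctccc
Col3a1: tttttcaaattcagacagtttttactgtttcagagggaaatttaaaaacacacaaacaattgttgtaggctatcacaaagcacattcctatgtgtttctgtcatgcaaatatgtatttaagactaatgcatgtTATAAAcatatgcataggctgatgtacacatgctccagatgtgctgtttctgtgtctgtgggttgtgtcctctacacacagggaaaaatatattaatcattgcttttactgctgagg
The Col1a2 stretch, at 62% G and C, held GC boxes 205 and 188 bases and a CCAAT box 109 bases before the start, whereas the Col3a1 stretch, at 35.2%, held a TATA box 117 bases before it. Of 32851 such stretches 32.7% held a GC box, 33.8% a CCAAT box and 12.4% a TATA box, beside 22, 13 and 5 of the 38 stretches found for 35 of the 44 chains. These letters are a description of the sequence, and binding was not measured.

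Type V chains, which start fibrils and set their diameter, showed the same order of mutant libraries. Col5a1 was at 264 and 185 CPM in the mutants and 261 and 223 CPM in the wild types, and Col5a2 at 183 and 131 CPM in the mutants and 169 and 167 CPM in the wild types. In both chains mutant replicate 1 was highest and mutant replicate 2 lowest. The log2 fold changes were -0.11 ± 0.17 and -0.10 ± 0.15 (SE). The type XI chain Col11a1, related to type V and common in cartilage, was at 22.1 and 15.5 CPM in the mutants and 18.8 and 18.5 CPM in the wild types. Col24a1, a minor fibrillar chain linked to bone, was the only fibrillar chain with both mutants (3.63 and 3.19 CPM) above both wild types (2.85 and 2.61 CPM), at a log2 fold change of 0.32 ± 0.31 (SE, edgeR adjusted p = 1). The remaining fibrillar chains, Col5a3, Col11a2 and Col27a1, lay between 1.59 and 10 CPM, with overlapping groups.

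Col2a1, the main collagen of cartilage, was at 18.7 and 7.58 CPM in the mutants and 13.0 and 4.65 CPM in the wild types. Replicate 1 was higher than replicate 2 in both genotypes, and the mutant was the higher one within each replicate number. The groups overlapped, and the log2 fold change of 0.56 had an SE of 0.55. Col9a1 and Col9a2, cartilage partners of Col2a1 among the other collagens, had the same order of libraries. The related chain Col9a3 did not fully share it. At 5.72 and 4.92 CPM in the mutants and 4.65 and 4.42 CPM in the wild types, its groups did not overlap. Col9a1 was at 10.3 and 3.79 CPM in the mutants and 5.11 and 2.61 CPM in the wild types. Col9a2 was at 77.2 and 37.9 CPM in the mutants and 47.9 and 29.6 CPM in the wild types, with a log2 fold change of 0.56 ± 0.35 (SE, edgeR adjusted p = 1). Type IX collagen coats type II fibrils. The 5 cartilage markers, Acan, Matn1, Matn3, Hapln1 and Comp, summed to 37.7 and 27.2 CPM in the mutants and 34.3 and 28.6 CPM in the wild types. They did not share one order. Matn1 was at 4.72 and 0.07 CPM in the mutants and 0.41 and 0.00 CPM in the wild types, and Acan at 20.2 and 17.9 against 17.5 and 12.5 CPM, both highest in mutant replicate 1. Hapln1 was at 11.6 and 6.78 CPM in the mutants and 14.2 and 13.6 CPM in the wild types, and Matn3 at 0.73 and 1.46 against 1.63 and 2.10 CPM, both lower in the mutants. Comp was at 0.36 and 0.93 against 0.58 and 0.40 CPM, and the median log2 fold change of the 3 markers tested was -0.61. The part of cartilage RNA in the levels of these chains was not tested.

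Markers of other cell types were read beside these chains. The interstitial stroma list of 6 markers (Nr2f2, Pdgfra, Tcf21, Maf, Gli1 and Ptch1) summed to 414 and 360 CPM in the mutants and 520 and 481 CPM in the wild types, with 5 of 6 markers lower in the mutant in both replicate pairs 1 (Ptch1) higher in both, and 0 at 0 counts throughout. By edgeR 0 of the 6 were called, and by DESeq2 Pdgfra and Tcf21. Pdgfra was at 168 and 139 CPM in the mutants and 233 and 217 CPM in the wild types, and fell by the test of DESeq2 (adjusted p = 0.00669) but not of edgeR (adjusted p = 0.301). Smooth muscle and pericyte markers summed to 114 and 82.2 CPM in the mutants and 134 and 102 CPM in the wild types, and macrophage markers, with Adgre1 and its older symbol Emr1 listed at 0 in every library, to 50.8 and 29.5 against 37.1 and 30.1 CPM. Neural crest and glia markers summed to 32.6 and 28.3 against 45.9 and 32.7 CPM. The part of these cell types in the fibrillar levels was not tested.

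Of the basement membrane chains, the most abundant pair hardly differed between libraries. Col4a1 and Col4a2, which assemble into the type IV collagen of nearly all basement membranes, lie head to head on chromosome 8, with Col4a1 at 11198423 to 11312826 on the minus strand and Col4a2 at 11312805 to 11449287 on the plus strand of mm9. Their transcripts share 22 bases, and whether counting kept the strands apart is not given in the sources used here. Col4a1 was at 635 and 549 CPM in the mutants and 615 and 595 CPM in the wild types, and Col4a2 at 324 and 283 CPM in the mutants and 319 and 307 CPM in the wild types. The log2 fold changes were -0.03 ± 0.10 and -0.05 ± 0.10 (SE). Per kb of exon Col4a1 stood to Col4a2 as 1.90, 1.89, 1.87 and 1.88 in mutant replicates 1 and 2 and wild-type replicates 1 and 2, the most constant ratio of the 7 pairs of chains compared. Endothelial markers, for cells that lie on such membranes, summed to 450 and 429 CPM in the mutants and 471 and 487 CPM in the wild types.

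Col4a5 and Col4a6, the type IV chains of epithelial and smooth muscle basement membranes, behaved differently. Col4a5 was at 156 and 212 CPM in the mutants and 150 and 191 CPM in the wild types. Col4a6 was at 31.6 and 64.6 CPM in the mutants and 31.0 and 59.3 CPM in the wild types. Both were higher in replicate 2 than in replicate 1 whatever the genotype, and they were the only 2 of the 42 chains with that order in both genotypes, an order that 29.7% of all genes showed. Per kb of exon Col4a5 exceeded Col4a6 by 5.88 and 5.77 times in replicate 1 of the mutant and the wild type and by 3.90 and 3.83 times in replicate 2. Against genotype, the log2 fold changes were 0.11 ± 0.17 and 0.10 ± 0.38 (SE).

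The genes of this pair lie head to head on the X chromosome, Col4a6 at 137599946 to 137908619 on the minus strand and Col4a5 at 137909928 to 138123778 on the plus strand of mm9, and RefSeq places the starts used here 1343 bases apart. The 250 bases before each start, each read towards its own gene, are shown because the chains moved together. They lie at chrX:141475169-141475418 on the plus strand for Col4a5 and chrX:141474077-141474326 on the minus strand for Col4a6, on GRCm38.p6, with the same motifs in capitals.
Col4a5: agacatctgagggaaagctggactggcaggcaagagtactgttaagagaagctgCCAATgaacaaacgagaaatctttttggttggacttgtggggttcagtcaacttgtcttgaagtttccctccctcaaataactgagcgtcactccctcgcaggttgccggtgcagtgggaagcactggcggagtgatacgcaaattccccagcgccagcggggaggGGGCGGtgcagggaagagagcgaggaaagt
Col4a6: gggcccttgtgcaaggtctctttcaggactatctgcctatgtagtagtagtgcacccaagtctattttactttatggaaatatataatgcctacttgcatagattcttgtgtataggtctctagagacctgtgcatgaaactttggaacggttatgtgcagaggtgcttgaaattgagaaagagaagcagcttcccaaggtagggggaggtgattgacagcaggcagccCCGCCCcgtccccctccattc
Upstream of Col4a5 a GC box lay 30 bases and a CCAAT box 196 bases before the start, and upstream of Col4a6 a GC box lay 21 bases before it on the opposite strand, where it reads CCGCCC. Neither held a TATA box.

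Col18a1, whose cleaved end is the angiogenesis inhibitor endostatin (chromosome 10, 76514923 to 76629293, minus strand), was at 488 and 467 CPM in the mutants and 452 and 420 CPM in the wild types. Both mutants lay above both wild types, by a log2 fold change of 0.13 ± 0.09 (SE, edgeR adjusted p = 1). Col15a1, its relative of muscle and vessel basement membranes, was at 52.0 and 48.9 CPM in the mutants and 45.6 and 58.4 CPM in the wild types, with overlapping groups. Col4a3 and Col4a4, partners of Col4a5 in the kidney glomerulus, lie next to each other on chromosome 1 and were rare. Col4a4 was at 3.99 and 3.66 CPM in the mutants and 2.62 and 2.66 CPM in the wild types, without overlap, at a log2 fold change of 0.53 ± 0.30 (SE, edgeR adjusted p = 1). Col4a3 was at 1.27 and 1.20 CPM in the mutants and 1.51 and 1.30 CPM in the wild types, lower in the mutants where its neighbour was higher. Mesonephric tubule and duct markers, for the tissue next to the gonad, summed to 28.4 and 37.2 CPM in the mutants and 22 and 23.3 CPM in the wild types. They did not move as one. Pax8 and Cdh16 were higher in the mutant in both replicate pairs, Pax2 was lower in both, and Lhx1 and Gata3 differed in sign between the pairs. The part of this tissue in the levels of these chains was not tested.

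Type VI collagen, which forms beaded filaments around cells, led the other class. Of its common chains, Col6a1 and Col6a2 hardly differed between genotypes. Col6a1 was at 336 and 278 CPM in the mutants and 315 and 281 CPM in the wild types, and Col6a2, its neighbour on chromosome 10, at 309 and 272 CPM in the mutants and 313 and 283 CPM in the wild types, with log2 fold changes of 0.04 ± 0.12 and -0.04 ± 0.10 (SE). In each genotype replicate 1 was the higher. Col6a3, their large partner, was at 171 and 130 CPM in the mutants and 183 and 181 CPM in the wild types. Both of its mutants lay below both wild types, by a log2 fold change of -0.28 ± 0.14 (SE, edgeR adjusted p = 0.989).

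The chains that can take the place of Col6a3, namely Col6a4, Col6a5 and Col6a6, lie next to each other on chromosome 9. Col6a6 (105591747 to 105730415, minus strand, mm9) had the smallest p of all chains. It was at 37.3 and 34.2 CPM in the mutants and 22 and 25.4 CPM in the wild types, so the groups did not overlap, and its log2 fold change was 0.59 ± 0.13 (SE). The unadjusted p of 0.00306 gave an adjusted p of 0.347 in edgeR and 0.266 in DESeq2. Within the replicate numbers Col6a6 was higher in the mutant by 0.76 and 0.42 on the log2 scale. Col6a5 was at 6.99 and 6.98 CPM in the mutants and 5.81 and 4.76 CPM in the wild types, also without overlap, at a log2 fold change of 0.40 ± 0.24 (SE, edgeR adjusted p = 1). Col6a4 was at 5.44 and 11.9 CPM in the mutants and 5.58 and 4.76 CPM in the wild types. Only mutant replicate 2 stood out, and the log2 fold change of 0.76 had an SE of 0.37.

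The 250 bases before the Col6a6 start are shown because this chain had the smallest p. They lie at chr9:105828086-105828335 on the minus strand of GRCm38.p6 in RefSeq, with motifs in capitals.
Col6a6: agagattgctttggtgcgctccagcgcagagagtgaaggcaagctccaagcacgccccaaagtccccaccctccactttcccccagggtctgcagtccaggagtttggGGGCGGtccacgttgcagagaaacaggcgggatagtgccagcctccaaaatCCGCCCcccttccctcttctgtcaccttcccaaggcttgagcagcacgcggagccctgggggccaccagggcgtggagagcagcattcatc
A GC box lay 142 bases before the start and another, on the opposite strand, 91 bases before it, in a stretch of 62.4% G and C without a CCAAT or TATA box.

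Of the collagens that attach to fibrils, Col16a1 and Col22a1 differed in opposite directions. Col16a1, found near basement membranes and in skin, was at 53.9 and 47.3 CPM in the mutants and 63.5 and 67.9 CPM in the wild types, at a log2 fold change of -0.38 ± 0.12 (SE, edgeR adjusted p = 0.608). Col22a1, known from muscle and tendon junctions, was at 18.2 and 19.3 CPM in the mutants and 14.9 and 12.1 CPM in the wild types, at a log2 fold change of 0.48 ± 0.17 (SE, edgeR adjusted p = 0.738). In neither did the groups overlap. Of the wild types, replicate 1, the library with the most skeletal muscle marker RNA, was the higher in Col22a1 and the lower in Col16a1, and the part of muscle RNA in these levels was not tested. Col12a1 and Col14a1, which link fibrils in dense connective tissue, were at 192 and 156 and at 60.9 and 35.4 CPM in the mutants, and at 178 and 254 and at 59.6 and 53.9 CPM in the wild types. Their groups overlapped. Col9a3, the third type IX chain, was at 5.72 and 4.92 CPM in the mutants and 4.65 and 4.42 CPM in the wild types. Col19a1 and Col20a1 lay between 0.27 and 3.37 CPM.

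The transmembrane and short-chain collagens held the extremes. Col17a1, the hemidesmosomal collagen of epithelia, was at 9.62 and 2.73 CPM in the mutants and 2.38 and 1.98 CPM in the wild types, which are 106, 41, 41 and 35 counts. Mutant replicate 1 stood apart from the other libraries. The log2 fold change was 1.48 ± 0.57 (SE, edgeR adjusted p = 0.833). Without mutant replicate 2 it was 2.13 with an edgeR adjusted p of 0.0426, and the lowest value with another library left out was 0.32. Col8a1, a network-forming collagen of vessels and the eye, had 26 and 13 counts in the mutants and 8 and 8 in the wild types. Its log2 fold change of 1.76 ± 0.61 (SE, edgeR adjusted p = 0.738) rests on these few counts. Its partner Col8a2 was at 29.5 and 22.7 CPM in the mutants and 21.4 and 24.2 CPM in the wild types, with overlap. Col23a1, a shed membrane collagen, was at 21.0 and 22.3 CPM in the mutants and 30.0 and 26.3 CPM in the wild types, at a log2 fold change of -0.38 ± 0.13 (SE, edgeR adjusted p = 0.752). Surface epithelium and mesothelium markers summed to 141 and 104 CPM in the mutants and 166 and 169 CPM in the wild types. The neuronal chain Col25a1, the transmembrane chain Col13a1, the anchoring fibril chain Col7a1 and the rare Col28a1 lay between 0.68 and 15.8 CPM, with overlapping groups in each.

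Mutant and wild-type libraries of the same replicate number were then set side by side, although the labels do not say that a number marks a shared litter. In the column names, libraries of the same replicate number carry consecutive library numbers, while those of different replicate numbers lie far apart. What the library numbers mark is not given, so a shared preparation can be neither stated nor set aside. The change had the same sign in both pairs for 24 of 42 chains, 16 higher and 8 lower in the mutant, which is 57.1% beside 53.8% of all genes. Another 14 chains were higher in the mutant in pair 1 and lower in pair 2, or 33.3% beside 23.5% of all genes, and 4 had the reverse order. The fibrillar chains made up 6 of these 14. Their median log2 change was 0.23 in pair 1, where 10 of 11 were higher in the mutant, and -0.26 in pair 2, where 7 of 11 were lower. Col3a1 changed by 0.12 in pair 1 and -0.71 in pair 2, Col1a1 by 0.45 and -0.27, and Col1a2 by 0.20 and -0.34. In both pairs 4 fibrillar chains were higher (Col2a1, Col5a3, Col11a2 and Col24a1) and 1, Col27a1, was lower. The medians of the basement membrane chains were 0.05 and 0.006 and those of the other chains 0.10 and 0.15.

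**Figure D4:**
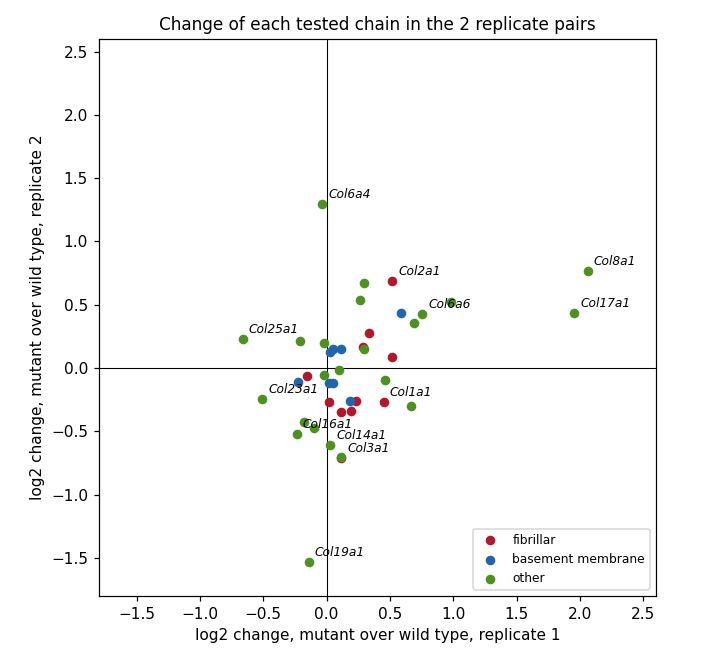
Log2 change of mutant over wild type in the replicate 2 pair against that in the replicate 1 pair for the 42 tested chains, coloured by class, both axes in log2 units. The cluster of fibrillar chains to the right of the vertical line and below the horizontal one is the 6 chains that were higher in the mutant in pair 1 and lower in pair 2, while Col8a1, Col17a1, Col2a1 and Col6a6 lie in the upper right, where both pairs agree in sign.

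Replicates of one genotype were compared in the same way. In the mutants 36 of 42 chains were lower in replicate 2 than in replicate 1, all 11 fibrillar chains among them, beside 52.8% of all genes. The median difference of replicate 2 from replicate 1 was -0.38 on the log2 scale for the chains and -0.57 for the fibrillar chains, against -0.02 for all genes. In the wild types 31 chains were lower in replicate 2, 10 of them fibrillar, with medians of -0.12 for the chains, -0.12 for the fibrillar chains and -0.001 for all genes. In both genotypes together 27 of 42 chains, and 10 of 11 fibrillar chains, were lower in replicate 2, against 32.6% of all genes. Col3a1 was the fibrillar chain that was not, at 0.23 higher in wild-type replicate 2. For 32 of 42 chains (76.2%) the gap between the replicates of at least 1 genotype exceeded the fitted change with genotype, a share near the 78.8% of all genes and thus no feature of the chains. With 2 libraries against 2, an exact permutation test (two-sided) of a single value cannot go below p = 0.333.

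**Figure D5:**
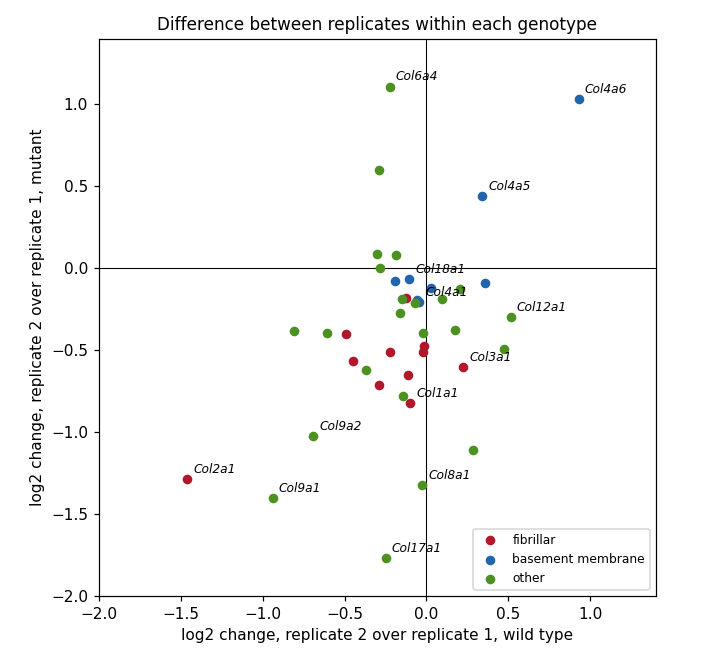
Log2 difference of replicate 2 from replicate 1 in the wild-type libraries and in the mutant libraries for the 42 tested chains, coloured by class, both axes in log2 units. All 11 fibrillar chains lie on the negative side for the mutants, and Col4a5 and Col4a6 are the 2 chains on the positive side for both genotypes.

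Genes that modify, export, trim, crosslink, bind and degrade collagen were read from 7 lists of 70 genes, of which 58 were tested. By edgeR 0 were called in either direction, with 0 higher and 5 lower at an unadjusted p under 0.05, or 8.62% lower beside 2.73% of all genes. DESeq2 called 0 higher and 2 lower, in a comparison where it called 0.435% of all genes lower. In both replicate pairs 25 pathway genes (43.1%) were lower and 8 (13.8%) higher in the mutant, beside 27.3% and 26.5% of all genes. The enzymes of prolyl and lysyl modification (14 tested, 0 called, 6 lower and 3 higher in both pairs, median log2 fold change -0.06) were led by P4hb, a subunit of prolyl hydroxylase, at 676 and 663 CPM in the mutants and 703 and 693 CPM in the wild types. P3h4, a partner of lysyl hydroxylase, had the smallest p there, at 40.6 and 42.5 against 46.5 and 50.4 CPM. Colgalt2, which glycosylates collagen, is listed at 0 in every library, as is its older symbol Glt25d2. The folding and export list (8 tested, 0 called, median -0.09) was led by Sparc, a collagen-binding matrix protein, at 833 and 772 CPM in the mutants and 824 and 861 CPM in the wild types. Fkbp10, a collagen chaperone, was at 70.9 and 71.5 against 82.5 and 88.2 CPM, a log2 fold change of -0.26 ± 0.10 (SE, edgeR adjusted p = 0.806). Mia3, an export receptor for procollagen, is listed at 0 in every library and has no gene model in the annotation used here, so its expression cannot be judged. Mia2 had 0, 0, 2 and 0 counts, while a row under its older symbol, Ctage5, held 1346, 1583, 1988 and 1735 counts that were not added to it.

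Procollagen processing (8 tested, 0 called, median -0.16) included Adamts2, the protease that removes the amino-terminal propeptide of type I, II and III procollagen, at 45.3 and 52.0 CPM in the mutants and 64.6 and 66.0 CPM in the wild types, a log2 fold change of -0.42 ± 0.12 (SE, edgeR adjusted p = 0.5). Pcolce, the enhancer of the carboxy-terminal protease, was at 86.5 and 86.2 CPM in the mutants and 99.3 and 99.8 CPM in the wild types. Neither pair of groups overlapped. Of the 5 lysyl oxidases (0 called, median -0.18), which crosslink fibrils, Lox was at 24.7 and 13.0 CPM in the mutants and 22.9 and 24 CPM in the wild types, and Loxl2 at 84.4 and 59.0 CPM in the mutants and 75.8 and 78.0 CPM in the wild types, both lowest in mutant replicate 2. Collagen receptors (9 tested, 0 called, median 0.04) were led by the integrin subunit Itgb1, at 518 and 497 against 523 and 513 CPM, and its partner Itga1 was at 11.4 and 13.9 against 19.5 and 14.4 CPM.

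The small leucine-rich proteoglycans, which coat fibrils, had the lowest list median at -0.31, with 10 tested and 0 called by edgeR. Bgn was at 132 and 105 CPM in the mutants and 165 and 139 CPM in the wild types, a log2 fold change of -0.37 ± 0.14 (SE, edgeR adjusted p = 0.833). Lum, which regulates fibril diameter, was at 27.0 and 19.5 CPM in the mutants and 37.2 and 42.9 CPM in the wild types. It fell by the test of DESeq2 (adjusted p = 0.0374), while in edgeR its log2 fold change was -0.79 ± 0.18 (SE) and its adjusted p 0.347. The collagen-degrading proteases (4 tested, median -0.29) had Mmp1a and Mmp1b listed at 0 throughout. Mmp2, the gelatinase that cleaves type IV and denatured collagen, was at 163 and 159 CPM in the mutants and 241 and 244 CPM in the wild types. The gap between the genotypes was far larger than that within them. Mmp2 fell by the test of DESeq2 (adjusted p = 0.000166), while in edgeR its log2 fold change was -0.59 ± 0.09 (SE) and its adjusted p 0.125. Without mutant replicate 1, edgeR called both Mmp2 (adjusted p = 0.0347) and Lum (adjusted p = 0.0189). Its substrates Col4a1 and Col4a2 differed by no more than their spread in the same libraries.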

How the data were processed

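RNA-seq of 4 mouse ovary libraries was used. Per the methods and the submitters' processing notes, the authors aligned reads with STAR 2.6.1d to mm9 and counted them with summarizeOverlaps. The deposited values are raw counts per gene, without normalization. The annotation and the use of strand are not given in the sources used here. 0 sample columns were left unused.

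Counts were analysed in R 4.3.3 with edgeR 4.0.16 (TMM, filterByExpr, quasi-likelihood test, Benjamini-Hochberg adjustment over 15442 genes), with genotype as the only term. DESeq2 1.42.0 with default settings, the study's tool, was the first alternative. Each standard error was obtained by dividing the fold change by the root of its F value. The libraries of a genotype differed by more than sampling noise (chi-square per degree of freedom 11.8 and 13.2). Log2 CPM in pairs used a prior count of 2. Scripts were tested on simulated data with 200 changed genes. Totals of 11036313 to 17869840 counts set the precision, and floors and counts cover counting error only. Lengths and positions come from GENCODE M1 on NCBIM37 (mm9), promoters from RefSeq on GRCm38.p6 for 35 of 44 chains.

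The chains and lists were chosen with earlier results of these data known. Values were printed for the 4 highest chains per length and the 3 of smallest p in each class (18 chains), and per pathway list for the member of highest level, that of smallest p and any member called. Other chains with values, Col5a2, Col11a1, Col4a3, Col4a6, Col15a1, Col6a4, Col6a5, Col8a1, Col8a2, Col9a1, Col9a3, Col12a1, Col14a1, Col17a1, Col19a1 and Col23a1 among them, were chosen after their values were seen, as were the marker genes given singly. Markers of pre-granulosa, germ, interstitial stroma, endothelial, erythroid, macrophage, skeletal muscle, cartilage, smooth muscle, mesonephric, neural crest and surface epithelium cells were summed. Alternatives were other scalings, filters, thresholds and tools, a replicate block, leaving out each library, and the longest transcript as length.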

Additional observations from a re-analysis of the deposited data

How the results depend on the processing

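Counts of calls moved with the settings. Genes called, 9 as reported, were 105 with DESeq2, 134 with the likelihood ratio test, 28 without a filter, 19 with at least 10 counts in every library, 20 at an adjusted p under 0.1, 10 each with RLE and upper-quartile scaling, and 4 to 130 with a library left out. Collagen chains called stayed at 0 in these fits, except 0 to 1 with a library left out. Pathway genes called, 0 as reported, were 2 with DESeq2, 2 with the likelihood ratio test, and 0 to 3 with a library left out, the 3 without mutant replicate 1. Leaving out a library leaves a lone sample, which is assumed to vary like the other group.

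With the replicate number as a block, edgeR called 385 genes (2.49% of those tested). Among them were 2 chains (Col6a6, log2 fold change 0.59, adjusted p = 0.0157, and Col9a2, 0.53, adjusted p = 0.017) and 5 pathway genes. In this fit 14 chains had an unadjusted p under 0.05. The share of all genes at that threshold is not given here, so nothing is read from this count. The deviations of same-numbered libraries from their group means correlated at 0.481, but the labels do not say what a number marks.

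Leaving out a library moved the median log2 fold change between -0.119 and 0.155 for all chains, -0.323 and 0.248 for fibrillar, -0.033 and 0.122 for basement membrane and -0.085 and 0.173 for other chains. Of 42 genes followed, 0 changed sign in the other settings and 17 did when a library was left out. These ran from -0.323 to 0.499 (Col1a1), -0.401 to 0.248 (Col1a2), -0.221 to 1.481 (Col2a1), -0.141 to 0.069 (Col4a1), -0.148 to 0.047 (Col4a2), -0.13 to 0.312 (Col4a5), -0.518 to 0.653 (Col4a6), -0.389 to 0.122 (Col5a1), -0.354 to 0.122 (Col5a2), -0.103 to 0.173 (Col6a1), -0.136 to 0.051 (Col6a2), -0.028 to 1.407 (Col9a1), -0.034 to 0.993 (Col9a2), -0.685 to 0.099 (Col14a1), -0.213 to 0.154 (Col15a1), -0.857 to 0.071 (Lox) and -0.383 to 0.132 (Loxl2). The cause was not tested. With the longest transcript as length, the level of 7 of 18 chains moved. Chains under about 1 CPM rest on few counts, which limits what their changes can show.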
